A study of Homo sapiens with 4 samples.

Results

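Mitochondrial ribosomal protein genes encode the protein subunits of the mitoribosome, the ribosome inside mitochondria. They were taken from the deposited gene table by symbol, as MRPL (large subunit) or MRPS (small subunit) followed by a digit, and 18 of the 94 symbols of that form were pseudogenes or antisense genes and were left out. This gave 76 genes of the 26726 in the table, 47 MRPL and 29 MRPS. RNA sequencing had been done on HN12 cells, a head and neck squamous cell carcinoma line. The groups were parental cells with intact ATAD3A (WT, 2 libraries) and cells in which ATAD3A had been knocked out by CRISPR/Cas9 (KO, 2 libraries). All 4 libraries came from the same line in the same medium, and no drug treatment of the sequenced cultures or time course is described. The KO cells had earlier been transfected and selected with puromycin, while the WT cells are called parental. The KO cells had been grown from single cells, and whether the RNA came from 1 clone or from several is not stated, so a clone and the knockout cannot be told apart.

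ATAD3A is an AAA+ ATPase of the mitochondrial inner membrane that touches the nucleoids, the particles in which mitochondrial DNA is packed. The mitoribosome translates the few mRNAs encoded by that DNA, all of them for membrane subunits of the respiratory chain and the ATP synthase. Every one of its proteins is encoded in the nucleus, made in the cytosol and imported. Some descend from proteins of the bacterial ribosome, and others are found only in mitochondria. Their genes have mostly short transcripts and are active in all cells with mitochondria. Transcription factors of the ETS family (GABP), NRF1 and YY1 are known to act at many genes of mitochondrial biogenesis.

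The targeted gene followed the labels, with ATAD3A at 702 and 492 counts in the KO libraries and 1802 and 1471 in the WT libraries (log2 fold change -1.70, SE 0.091, adjusted p = 1.58e-17, edgeR quasi-likelihood test with Benjamini-Hochberg adjustment). The libraries held 13569971 to 18943547 counts. Values below are CPM, counts scaled to a common library size with TMM factors, fold changes are KO against WT on the log2 scale, and adjusted p-values come from the same edgeR fit over 15104 genes, with a call at an adjusted p under 0.05. All 9 markers of squamous epithelium were detected, while fibroblast, leukocyte and endothelial markers summed to only 13.9 to 17.5 CPM. The squamous markers also moved with the genotype, 5 of 9 higher (55.6%, against 20.4% of all genes) and 4 of 9 lower (44.4%, against 19.1%) in KO. Their sum was 5151 and 5188 CPM in KO against 2626 and 2594 CPM in WT. Most of this rise came from KRT5 (means of 2454 CPM in KO and 397 CPM in WT), while TP63, CDH1, EPCAM and DSP were the 4 lower markers. In bulk RNA, fewer cells of a type and less RNA per cell cannot be told apart.

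Promoter sequences, the 250 bases before the annotated start, were available for 67 of the 76 genes from RefSeq (GRCh38.p14). The ETS motif CCGGAAG, searched on both strands, was in 22 of these 67 promoters (32.8%), compared with 8.82% of all 27305 promoters and 15.5% of the promoters of tested genes. The NRF1 motif GCGCANGCG was in 12 of 67 (17.9%, against 7.02% of all promoters and 12.9% of those of tested genes) and the YY1 motif AAGATGGCG in 3 of 67 (4.48%, against 0.641% and 1.03%). The ETS and YY1 motifs share the letters AAG and may overlap, and each was counted for itself. By contrast, CCAAT was in 28.4% and the E-box CACGTG in 8.96% of the members' promoters, against 33.0% and 6.49% of all promoters and 34.8% and 8.76% of those of tested genes. ETS matches stood in promoters of genes that moved either way in KO, in 9 of 25 higher, 3 of 6 lower and 9 of 35 uncalled genes with a promoter. The sequences below show this for the 2 lower genes with the largest falls (MRPS10 and MRPL3) and for 2 higher genes (MRPS26 and MRPL20), beside MRPL41, the gene with the largest rise, whose window held neither motif. Capitals mark matches to the ETS or NRF1 motif on either strand, and each sequence is written 5′ to 3′ on the strand of its gene. They lie at chr20:3045802-3046051 (MRPS26, plus strand), chr1:1407294-1407543 (MRPL20, minus strand), chr9:137551629-137551878 (MRPL41, plus strand), chr6:42217862-42218111 (MRPS10, minus strand) and chr3:131502972-131503221 (MRPL3, minus strand).
MRPS26: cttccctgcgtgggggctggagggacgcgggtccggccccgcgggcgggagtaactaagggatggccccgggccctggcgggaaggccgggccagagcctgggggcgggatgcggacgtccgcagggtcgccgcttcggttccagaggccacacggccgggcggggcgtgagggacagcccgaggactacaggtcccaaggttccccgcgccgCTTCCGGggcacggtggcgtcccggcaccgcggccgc
MRPL20: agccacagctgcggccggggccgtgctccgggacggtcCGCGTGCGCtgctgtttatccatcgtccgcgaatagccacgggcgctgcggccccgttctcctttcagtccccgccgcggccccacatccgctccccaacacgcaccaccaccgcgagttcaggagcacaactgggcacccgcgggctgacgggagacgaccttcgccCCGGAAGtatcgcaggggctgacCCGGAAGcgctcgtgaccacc
MRPL41: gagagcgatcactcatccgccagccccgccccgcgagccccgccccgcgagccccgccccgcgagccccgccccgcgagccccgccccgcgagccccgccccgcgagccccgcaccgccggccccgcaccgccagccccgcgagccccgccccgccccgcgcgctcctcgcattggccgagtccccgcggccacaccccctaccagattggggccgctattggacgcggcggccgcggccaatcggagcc
MRPS10: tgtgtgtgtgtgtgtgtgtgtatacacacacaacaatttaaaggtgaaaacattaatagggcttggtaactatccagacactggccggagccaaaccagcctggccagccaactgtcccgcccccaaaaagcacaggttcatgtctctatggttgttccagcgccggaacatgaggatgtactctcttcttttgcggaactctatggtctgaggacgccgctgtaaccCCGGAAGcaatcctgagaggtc
MRPL3: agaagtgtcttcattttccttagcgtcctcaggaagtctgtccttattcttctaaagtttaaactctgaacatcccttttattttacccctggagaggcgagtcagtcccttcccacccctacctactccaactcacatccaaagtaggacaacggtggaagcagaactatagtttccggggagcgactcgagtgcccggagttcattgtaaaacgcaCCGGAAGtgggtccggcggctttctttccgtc
A match is a run of letters and no evidence of binding.

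In ATAD3A KO cells the mitochondrial ribosomal protein genes shifted by small amounts and in both directions, more often up. Of the 75 genes that could be tested, 29 were higher and 6 lower in KO, while 40 were not called. Over all tested genes 20.4% were higher and 19.1% lower, so the share of higher members (38.7%) stood above that of all genes and the share of lower members (8.0%) below it. Both KO libraries exceeded both WT libraries for 38 members (background 34.1%), and both were below for 13 (background 34%). The median log2 fold change was 0.18, compared with -0.0042 over all tested genes. The members were also less spread than genes at large, with an interquartile range of 0.40 against 0.59, and they ran from -0.38 (MRPS10) to 1.00 (MRPL41). Their levels were higher than those of genes at large, with a median of 25.6 RPKM in WT against 6.35 over all tested genes. Neither the spread nor the shares of calls were compared with genes of like level. Only 5 called genes changed by more than 1.5-fold, all upward, and only MRPL41 by more than 2-fold. MRPL30, the remaining member, had 0 and 4 counts in KO and 1 and 4 in WT and was not tested.

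**Figure D1:**
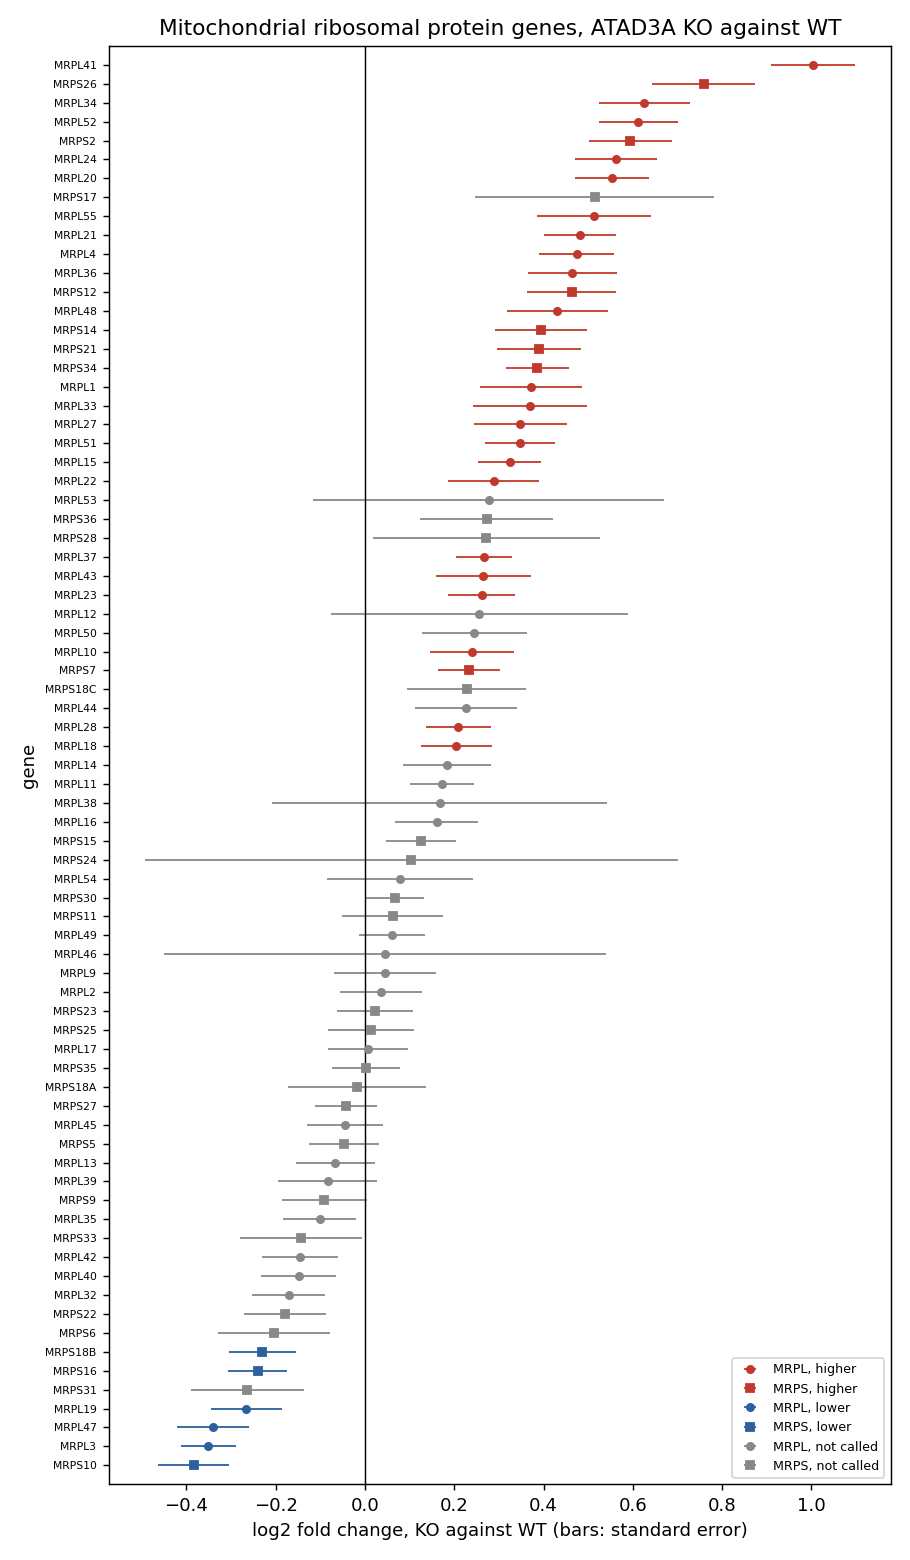
Log2 fold change (KO against WT) of each of the 75 tested mitochondrial ribosomal protein genes, with bars of 1 standard error; circles are MRPL and squares MRPS genes, and colour gives the call at an adjusted p under 0.05. The 29 higher genes reach from 0.21 to 1.00 and the 6 lower genes from -0.23 to -0.38.

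The size of this shift depended on which libraries were set against each other. The members summed to 4450 and 4084 CPM in KO and to 3859 and 3951 CPM in WT, so the groups did not overlap, but the lower KO library lay close to WT. The RPKM scale differs in 2 ways, as counts are divided by gene length and by the library total without TMM factors. On it the sums were 2669 and 2438 in KO and 2335 and 2419 in WT, and KO replicate 2 was nearly level with WT replicate 2. KO replicate 1 exceeded KO replicate 2 in 64 of 75 members, by a median of 0.12 on the log2 scale. The median difference was 0.25 between KO replicate 1 and WT replicate 1 and 0.055 between KO replicate 2 and WT replicate 2. Thus the median was positive in all 4 pairs of libraries, compared with TMM factors only. Among the 75 members, 58 were higher in KO replicate 1 than in WT replicate 1, but only 40 in KO replicate 2 than in WT replicate 2. The distance between the 2 KO libraries was of the same order as the shift. Without KO replicate 1 the median was 0.12 with 21 members higher, and without WT replicate 1 it was 0.11 with 23 higher. Library totals alone, without TMM factors, left 22 higher and 11 lower, with the median of all genes then at -0.074. Among called members, this changed the split from 29 of 35 higher to 22 of 33 higher.

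Before correction for GC content and length, a larger share of MRPL than of MRPS genes was called higher. Among the 46 MRPL genes tested, 22 were higher (47.8%) and 3 lower, with a median of 0.23, and among the 29 MRPS genes 7 were higher (24.1%, against 20.4% of all genes) and 3 lower, with a median of 0.062. After that correction, given below, 13 of 46 MRPL and 7 of 29 MRPS genes were higher, against 17.8% of all genes. The medians were then 0.068 and 0.066. The MRPS median changed sign to -0.0079 with library totals alone, where the median of all genes was -0.074. It was -0.0013 without KO replicate 1, with all genes at -0.012. On the log2 RPKM scales it was -0.014 and -0.015, for added values of 1 and 0.1, with all genes at -0.054 and -0.071. In each of these settings the MRPS median thus stayed above that of all genes. Summed MRPL levels were 2827 and 2584 CPM in KO and 2370 and 2458 CPM in WT. For MRPS genes they were 1623 and 1500 CPM in KO and 1489 and 1493 CPM in WT, which put KO replicate 2 nearly level with the WT libraries. In RPKM, which uses no TMM factors, the WT libraries had MRPS sums of 826 and 835, between those of the KO libraries (897 and 818). The difference between subunits was not tested. Regrouping by structure, with MRPS30 and MRPS18A placed in the large subunit where their proteins sit and MRPS36 left out, gave 22 higher and 3 lower of 48 large subunit genes and 7 higher and 3 lower of 26 small subunit genes.

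**Figure D2:**
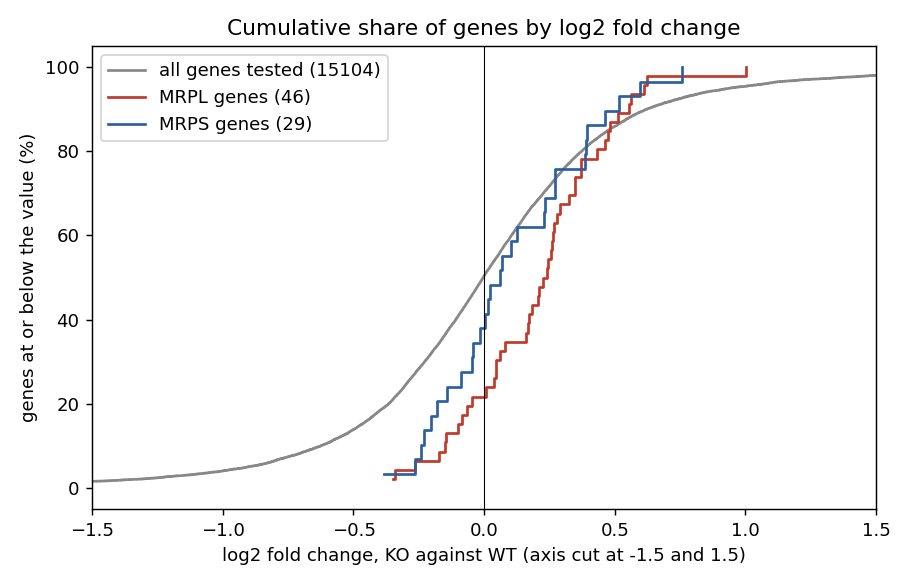
Cumulative share of genes (vertical axis, percent) at or below each log2 fold change, KO against WT (horizontal axis), for all 15104 tested genes (grey), 46 MRPL genes (red) and 29 MRPS genes (blue). The MRPL curve lies to the right of the grey curve over most of its course, with medians of 0.23 (MRPL) and 0.062 (MRPS), and both member curves are steeper than that of all genes.

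Genes whose proteins have a bacterial homologue moved in both directions. In this set of 45 tested genes, 21 were higher (46.7%) and 5 lower (11.1%), with a median of 0.23. The 30 genes listed as mitochondria-specific had 8 higher (26.7%) and 1 lower (3.33%), with a median of 0.064, and over all genes 20.4% were higher and 19.1% lower. The difference between these lists was not tested, and these counts are without the correction for GC content and length given below. Of the 13 members that lost the higher call under it, only MRPL37, MRPL43 and MRPS34 were listed as mitochondria-specific. Of the 4 that gained a higher call, only MRPS18C was on the bacterial homologue list. The lists therefore had equal shares of higher calls under the correction, where 17.8% of all tested genes were higher. The largest uncorrected rise belonged to a mitochondria-specific gene, MRPL41. MRPL41 (ENSG00000182154), a large subunit protein, was at 72.2 and 62.4 CPM in KO and at 32.4 and 34.9 CPM in WT. The fold change was 1.00 (SE 0.094, adjusted p = 6.28e-11, edgeR), and the groups were far apart. MRPS26 (ENSG00000125901), a mitochondria-specific protein of the small subunit, rose from 19.8 and 22.2 CPM in WT to 37.3 and 33.6 CPM in KO, a log2 fold change of 0.76 (SE 0.12, adjusted p = 1.57e-06, edgeR). MRPL52, a further mitochondria-specific large subunit protein, stood at 79.1 and 68.0 CPM in KO and 46.6 and 49.8 CPM in WT (log2 fold change 0.61, adjusted p = 5.32e-07, edgeR). In all 3 genes the lower KO library was above the higher WT library.

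The other named risers all have bacterial counterparts. MRPL34 reached 50.7 and 43.8 CPM in KO against 29.6 and 31.8 CPM in WT (log2 fold change 0.63, adjusted p = 5.02e-06, edgeR). MRPS2, which belongs to the conserved core of the small subunit, was at 55.33 and 54.99 CPM in KO and 37.8 and 35.2 CPM in WT (0.59, adjusted p = 2.37e-06, edgeR). MRPL20, a large subunit protein, was similarly tight, with 76.8 and 75.5 CPM in KO and 50.3 and 53.6 CPM in WT (0.55, adjusted p = 9.66e-07, edgeR). The replicates of MRPS2 and MRPL20 differed far less than the genotypes. MRPL24, near the exit of the tunnel through which the new peptide leaves, rose by 0.56 on the log2 scale, from 40.0 and 40.8 CPM to 63.3 and 55.8 CPM (adjusted p = 5.24e-06, edgeR). MRPL55 was lower and more scattered, at 31.9 and 25.9 CPM in KO and 18.5 and 22.1 CPM in WT (0.51, SE 0.13, adjusted p = 0.00135, edgeR). Its call was lost without KO replicate 1, where the log2 fold change was 0.36.

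The falls of the 6 lower genes were smaller than the largest rises. MRPS10 (ENSG00000048544), a small subunit protein with a bacterial homologue, was at 59.6 and 60.7 CPM in KO and at 75.6 and 81.4 CPM in WT (log2 fold change -0.38, SE 0.080, adjusted p = 0.000174, edgeR). MRPL3 (ENSG00000114686), whose bacterial counterpart lies close to the peptidyl transferase centre, was at 160 and 148 CPM in KO and at 196 and 197 CPM in WT (-0.35, SE 0.061, adjusted p = 1.38e-05, edgeR). For both genes the WT and KO values were farther apart than the libraries within either group. MRPL47, a tunnel exit protein, was at 65.1 and 57.7 CPM in KO and 76.3 and 79.4 CPM in WT (-0.34, adjusted p = 0.000913, edgeR). MRPL19 (-0.27, adjusted p = 0.00683, edgeR) and MRPS16 (-0.24, adjusted p = 0.00304, edgeR) followed, both with bacterial homologues. MRPS18B (-0.23, adjusted p = 0.0139, edgeR) was listed with the mitochondria-specific genes, as only MRPS18C of its 3 paralogs was counted as the homologue, and its values of 77.8 and 72.6 CPM in KO lay below 90.8 and 85.6 CPM in WT. The calls of MRPL19 and MRPS16 were lost without WT replicate 2, and that of MRPS18B without KO replicate 2 or WT replicate 1, each with the sign kept.

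**Figure D3:**
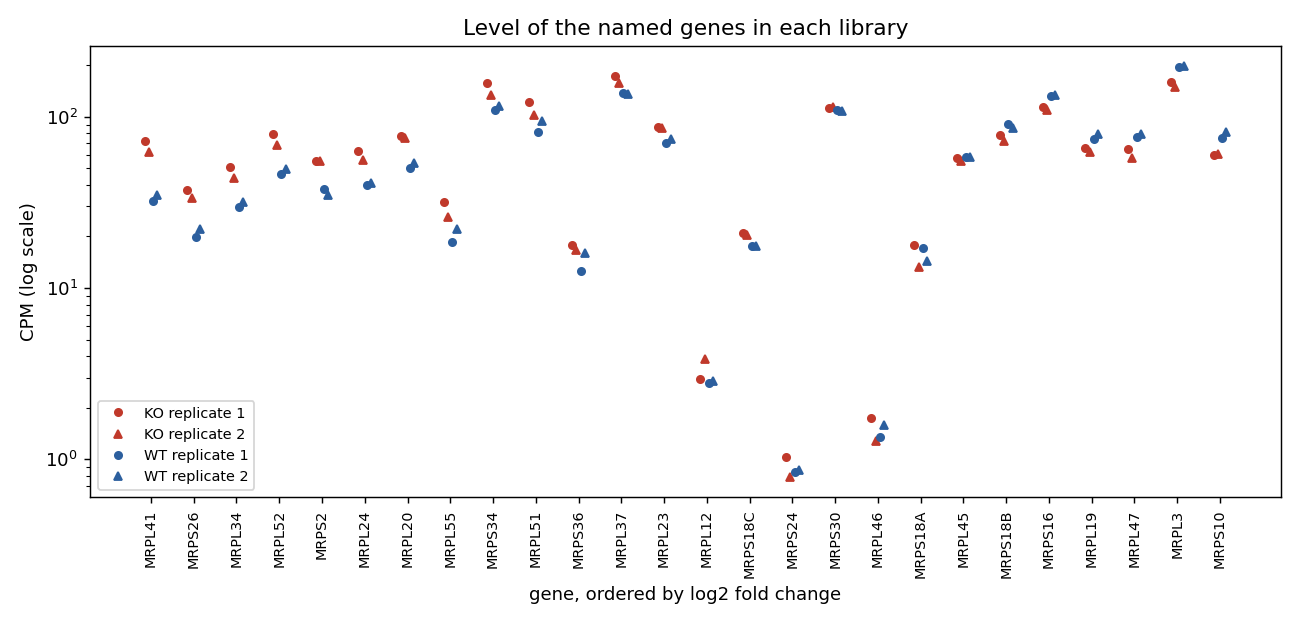
Level in CPM (log axis) of the 26 named mitochondrial ribosomal protein genes in each of the 4 libraries, ordered by log2 fold change; red marks KO, blue WT, circles replicate 1 and triangles replicate 2. CPM is not per length, so levels are to be read within a gene: from MRPL41 to MRPL55 all red points lie above the blue ones, and from MRPS18B to MRPS10 all lie below.

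By position in the ribosome, 1 gene of the stalk and 4 of the tunnel exit were called. The stalk, which recruits translation factors to the large subunit, had positive fold changes in all 4 listed genes (0.17 to 0.28, median 0.25). Only MRPL10 was called (0.24, adjusted p = 0.0395, edgeR), which is 25% of the list against 20.4% higher over all genes. After correction for GC content and length MRPL10 was not called (0.11, adjusted p = 0.385, edgeR), and MRPL12 changed sign (-0.18, not called). MRPL53 was counted at means of only 2.55 CPM in KO and 2.09 CPM in WT. MRPL12, the stalk protein that has also been reported to bind the mitochondrial RNA polymerase, was counted at only 2.93 and 3.84 CPM in KO and 2.78 and 2.88 CPM in WT and did not pass the test (0.26, SE 0.33, adjusted p = 0.587, edgeR). At the tunnel exit, 3 of 6 genes were higher (50%, against 20.4% of all genes) and MRPL47 was lower (16.7%, against 19.1%). The higher genes were MRPL22, MRPL23 and MRPL24, of which MRPL23 was not called after the correction (-0.12). MRPL45, the exit protein that helps to hold the ribosome at the inner membrane, was at 57.2 and 55.1 CPM in KO and 58.0 and 57.9 CPM in WT (-0.045, SE 0.084, adjusted p = 0.720, edgeR).

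The MRPS18 paralogs, which are related to one bacterial protein and sit at different places in the ribosome, had different values. MRPS18B was lower, as above. MRPS18A, a protein of the large subunit, overlapped between genotypes, with 17.8 and 13.4 CPM in KO and 17.1 and 14.5 CPM in WT (-0.018, adjusted p = 0.945, edgeR). MRPS18C was at 20.9 and 20.3 CPM in KO and 17.5 and 17.7 CPM in WT (0.23, adjusted p = 0.179, edgeR) and was not called, although its groups did not overlap. MRPS30, a mitochondria-specific protein of the large subunit, differed little (112.9 and 114.2 CPM in KO, 109.5 and 107.3 CPM in WT, 0.067, adjusted p = 0.465, edgeR). MRPS36, now known as a subunit of the 2-oxoglutarate dehydrogenase complex rather than of the ribosome, was at 17.8 and 16.6 CPM in KO and at 12.59 and 15.96 CPM in WT (0.27, adjusted p = 0.153, edgeR). None of these last 4 genes was called. After correction for GC content and length, however, MRPS30 (0.34, adjusted p = 2.67e-05), MRPS18C (0.39, 0.0175) and MRPS36 (0.39, 0.0395) were called higher by the edgeR test.

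Compared per length, the members covered a wide range of levels although their proteins mostly occur once per ribosome. MRPS34, a small subunit protein, had the highest level, with 148 and 126 RPKM in KO and 107 and 114 RPKM in WT, and ranked above 97.6% of tested genes. MRPL3, MRPL37, MRPL51 and MRPL23 followed with means over the 4 libraries of 103, 95.1, 87.7 and 86.4 RPKM. MRPS34 (log2 fold change 0.39, adjusted p = 2.89e-05), MRPL37 (0.27, 0.000811), MRPL51 (0.35, 0.000498) and MRPL23 (0.26, 0.00505) were higher in KO by the edgeR test, so 4 of the 5 most abundant members rose and MRPL3 fell. Of these 4, only MRPL51 kept the call after correction for GC content and length (0.18, adjusted p = 0.0438, edgeR). MRPL23 also lost its call without WT replicate 1 (0.23). The lowest tested members were MRPL46, at 0.304 and 0.225 RPKM in KO and 0.249 and 0.292 RPKM in WT, and MRPS24, at 0.581 and 0.448 RPKM in KO and 0.496 and 0.512 RPKM in WT. In both, the genotypes overlapped.

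Low values often belonged to genes that share sequence with another gene. Of 50-nt stretches of the members' transcripts (the read length), over 30% also occurred in another annotated gene for 7 members, and at most 1% did for 35. The 7 members under 10 CPM were MRPS24, MRPL46, MRPL53, MRPL38, MRPL12, MRPS17 and MRPS28, with shared shares of 9.12% for MRPS24 to 67.0% for MRPL38. For MRPL12 it was 66.6%, for MRPL53 50.2% and for MRPS18A 58.7%. Levels and fold changes of these genes are uncertain, because how reads that fit several genes were counted is not stated. None of the 7 low members was called, and their standard errors were the largest (0.60 for MRPS24, compared with a median of 0.093 over the members).

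**Figure D4:**
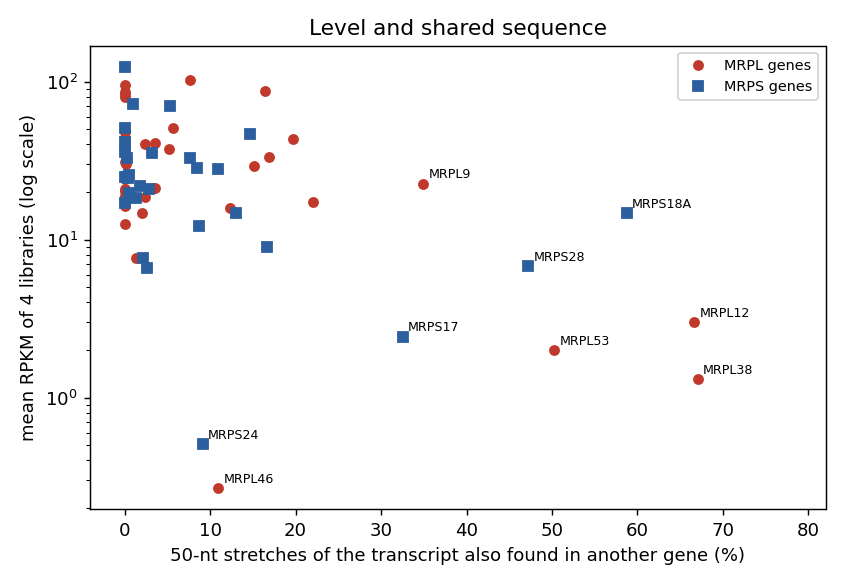
Mean RPKM of the 4 libraries (log axis) against the share of 50-nt stretches of each member's transcript that also occur in another gene, for MRPL (red circles) and MRPS genes (blue squares). Genes with over 30% shared sequence or under 10 CPM are named; MRPL12 and MRPL38 share over 66% and have mean levels of only a few RPKM or less.

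The GC content of the transcripts moved with the fold changes, in the members as in all genes. Among all tested genes with an average log2 CPM over 2, the median log2 fold change went from -0.20 in the lowest of 4 equal bins of GC content to 0.25 in the highest. The members' medians in the same bins went from -0.084 (20 genes) over 0.10 and 0.21 to 0.39 (17 genes), and each lay above that of all genes. Here and in the length bins all 75 tested members were placed, also those with an average log2 CPM under 2. The median of 0.10 was the value of MRPS24, at an average log2 CPM of 0.017. Short transcripts also tended upward, with a median of 0.16 in the shortest of 4 equal bins of all genes, which held 58 of the members (member median 0.24). The 10 members of the second bin (-0.0023) lay below all genes of that bin (0.039), and the 6 of the third (-0.044) were level with theirs (-0.047). MRPL41 had the highest GC content of the named genes (71.9%), while MRPS10, MRPL3, MRPL47 and MRPL19, 4 of the fallers, were between 38.0% and 42.4%.

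After correction of each library for GC content and length, the members' median fell from 0.18 to 0.066, with 20 higher and 6 lower. All tested genes then had 17.8% higher and 15.9% lower. The higher call was kept by 16 of the 29 genes, among them MRPL41 (corrected log2 fold change 0.41), MRPS26 (0.35), MRPL52 (0.62), MRPL34, MRPS2, MRPL24 and MRPL20. It was lost by 13, including MRPL10, MRPL43, MRPL55 and MRPL37, and 4 of the 13 changed sign (MRPL23 -0.12, MRPL28 -0.099, MRPS34 -0.054 and MRPL36 -0.023). Of the 6 lower genes, 5 kept the call and MRPL19 lost it. Newly called were MRPL50, MRPS18C, MRPS30 and MRPS36 as higher and MRPL40 as lower (-0.44, adjusted p = 4.02e-05, edgeR). Cytosolic ribosomal protein genes, which are also short, kept a median of 0.36 (0.43 uncorrected).

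**Figure D5:**
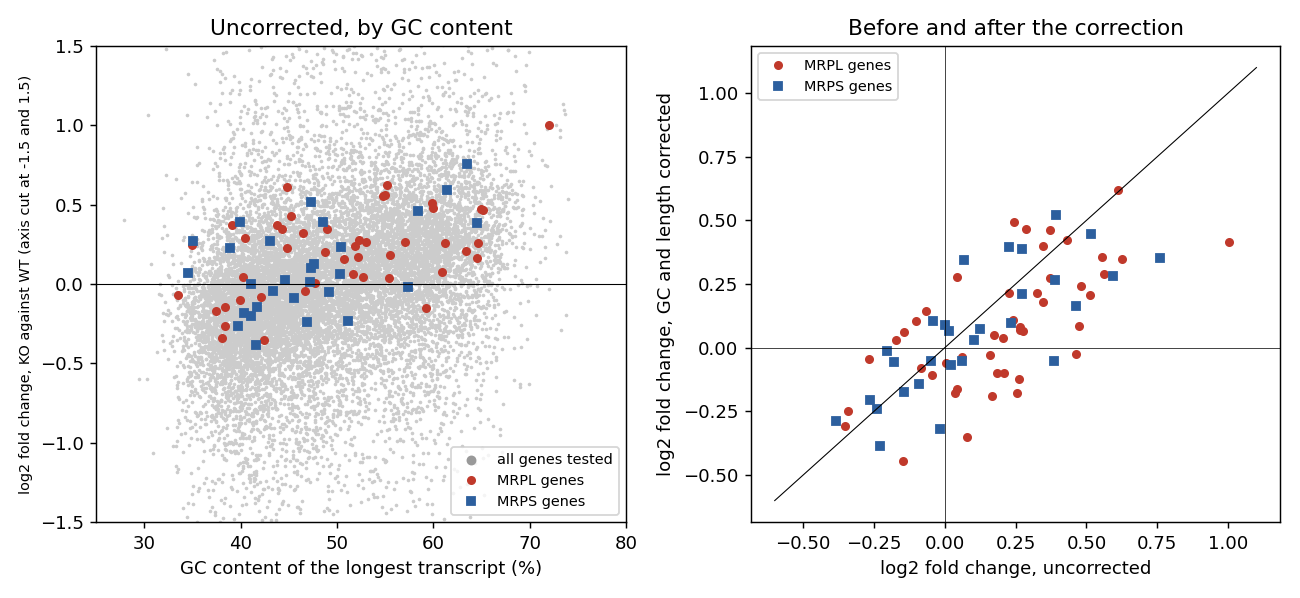
Left, log2 fold change (KO against WT) against GC content of the longest transcript for all tested genes (grey), MRPL (red circles) and MRPS genes (blue squares). Right, log2 fold change of each member before and after correction for GC content and length, with the line of equal values; MRPL41 drops from 1.00 to 0.41 while MRPL52 stays at 0.61 and 0.62.

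By chromosome, the 6 lower genes lay on 4 chromosomes. Chromosome 3 held MRPL3 and MRPL47 and chromosome 6 held MRPS10 and MRPS18B, where the medians of all tested genes of the chromosome were -0.14 and -0.18. MRPS16 lay on chromosome 10 (chromosome median -0.16) and MRPL19 on chromosome 2 (-0.0076). On chromosome 1 (chromosome median 0.043), 6 of 8 members were higher, and on chromosome 19 (0.25), 3 of 4 were, against 20.4% of all genes. After correction for GC content and length, MRPL37 and MRPL55 on chromosome 1 and MRPL4 and MRPS12 on chromosome 19 lost the call. With the chromosome median subtracted from each gene, the members' median was 0.16. Whether the copy number of these chromosomes differed between the KO and WT cells was not tested.

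Mitoribosomal proteins that carry other symbols were a further 7 genes. Of these, 4 were higher (57.1%, against 20.4% of all genes) and 0 lower, with a median of 0.32. MRP63, a large subunit protein, stood at 18.93 and 20.91 CPM in KO and 11.9 and 13.1 CPM in WT (0.67, adjusted p = 0.000286, edgeR). AURKAIP1, a small subunit protein, was at 168.7 and 176.6 CPM in KO and 108.9 and 116.5 CPM in WT (0.62, adjusted p = 6.57e-10, edgeR), and GADD45GIP1, of the large subunit, at 120.5 and 109.1 CPM against 80.7 and 76.4 CPM (0.55, adjusted p = 1.06e-07, edgeR). In these 3 genes KO was above WT in every library. ICT1, a peptidyl-tRNA hydrolase built into the large subunit, was also higher (0.32, adjusted p = 0.00505, edgeR). DAP3, CHCHD1 and PTCD3, all of the small subunit, had values of 0.12, 0.28 and 0.040 and were not called.

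Factors that build the mitoribosome or work with it had shares of calls that did not exceed those of all genes. Of 26 assembly and rRNA modification factors, 5 were higher (19.2%, against 20.4% of all genes) and 3 lower (11.5%, against 19.1%), with a median of 0.16. MRM1, which methylates the large rRNA, was at 5.86 and 7.32 CPM in KO and 3.49 and 3.95 CPM in WT (0.82, adjusted p = 0.00934, edgeR), and MTG1, a GTPase of large subunit assembly, was at 4.56 and 4.02 CPM in KO and 6.78 and 7.12 CPM in WT (-0.69, adjusted p = 0.0204, edgeR). RPUSD4, a pseudouridine synthase, was higher by 0.57 (adjusted p = 0.000786, edgeR). Among 15 translation factors and mRNA binding proteins, 3 were higher and 2 lower (13.3%), with a median of 0.17. SLIRP, which stabilises mitochondrial mRNAs, was at 82.6 and 78.4 CPM in KO and 51.1 and 49.2 CPM in WT (0.68, adjusted p = 1.48e-08, edgeR). MTFMT, which formylates the initiator tRNA, was also higher (0.47, adjusted p = 0.00858, edgeR). GFM2, a factor of ribosome recycling, was lower (-0.41, adjusted p = 0.000928, edgeR). TUFM, the elongation factor Tu, was higher and GFM1, the elongation factor G, was lower.

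The mRNAs that the mitoribosome translates changed little. Of the 13 mitochondrially encoded protein genes, 4 were higher in KO (30.8%, against 20.4% of all genes) and none was lower (against 19.1%), with a median of 0.094. All 4 encode subunits of complex I, as do MT-ND3 (0.11), MT-ND4 (0.022) and MT-ND4L (-0.033), which were not called. The largest fold change was that of MT-ATP8 (0.49, adjusted p = 0.12, edgeR), counted at means of only 6.17 CPM in KO and 4.40 CPM in WT and not called. MT-ND1 was at 1915 and 1973 CPM in KO and 1595 and 1590 CPM in WT (0.29, adjusted p = 2.51e-06, edgeR). MT-ND2 (0.20) and MT-ND6 (0.16) followed, and MT-ND5 had the smallest called rise (0.12). As a sum, the 13 genes gave 38514 and 40627 CPM in KO and 39542 and 37089 CPM in WT, so that the genotypes overlapped. The cytosolic ribosomal protein genes stood apart from the mitochondrial ones in number of calls and in their median of 0.43. Of 79 tested, 68 were higher (86.1%, against 20.4% of all genes) and 1 lower (1.27%, against 19.1%). The difference between the cytosolic and mitochondrial genes was not tested.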

How the data were processed

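RNA of 4 libraries (KO 1, KO 2, WT 1 and WT 2) was analysed, grouped by the sample titles and genotype labels. The authors had total RNA sequenced as 50-nt reads and deposited whole-number read counts for 26726 genes, without normalization. They also deposited a table whose values equal the counts divided by gene length and library total (RPKM), as worked out from the values. The submitters' processing notes list CASAVA, STAR 2.5, HTSeq, edgeR 3.16.5, DESeq2 and the build hg19. Roles, annotation and strand setting are not given in the sources used here, so reads of overlapping or antisense genes cannot be separated.

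The counts were filtered with filterByExpr, which left 15104 genes, scaled by TMM factors (0.975 to 1.03) and tested with the quasi-likelihood test of edgeR 4.0.16 in R 4.3.3, with Benjamini-Hochberg adjustment over all 15104 genes. At these depths 3 counts equal 0.163 to 0.216 CPM, and the biological coefficient of variation was 5.88%. The paper describes independent cultures, and p-values measure only the spread between these libraries. On simulated counts of this comparison (14779 genes), 24 of 50 genes changed 1.25-fold, 43 of 50 changed 1.5-fold and 49 of 50 changed 2-fold were recovered, with 8 false calls. Alternatives were DESeq2 1.42.0, limma 3.58.1 on log2 RPKM, other scalings and filters, a replicate block, each library left out, and a correction for GC content and length by splines (4 degrees of freedom). GC content came from the longest GENCODE v29 transcript (GRCh38, 97.2% of tested genes; 2 members matched by symbol).

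The members and gene lists were chosen with earlier results of these data known. Named were members past the threshold with the 8 largest rises and falls and groups that do not overlap, the 5 highest and 2 lowest in RPKM, MRPL12, MRPL45, MRPS30, MRPS36 and the MRPS18 genes, and up to 3 genes of each other mitochondrial translation list. The other members, and further genes of those lists, were named for completeness after their values were seen.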

Additional observations from a re-analysis of the deposited data

How the results depend on the processing

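The median of the members stayed positive in every alternative run, from 0.066 with the GC and length correction to 0.255 without KO replicate 2, and it moved by over 1.5 times under that correction (0.066), with library totals alone (0.114), on the log2 RPKM scales (0.105 and 0.107 for added values of 1 and 0.1), and without KO replicate 1 (0.118) or WT replicate 1 (0.112). The number lower was 11 with library totals only, 10 on log2(RPKM + 1) and 10 on log2(RPKM + 0.1), and the cause was not tested. These settings use no TMM factors. The median of all genes was -0.074, -0.054 and -0.071 in them, compared with -0.0042 in the main fit. The number lower was 0 at an unadjusted p with the fold thresholds of the study's methods, because no member fell by as much as they ask. The number higher ran from 20 (correction) to 30, with 23 by DESeq2, 21 with those thresholds and a range of 21 to 30 over fits without 1 library. Among called named genes, the sign reversed for MRPS34 (-0.054) and MRPL23 (-0.12), both under the GC and length correction, and 5 of 8 uncalled named genes (MRPL12, MRPL46, MRPS18A, MRPS24 and MRPS30) changed sign in at least 1 alternative. Of the remaining checks of single named genes, 322 left the call as it was, 11 lost it and 3 gained it. Fits without 1 library leave 1 group with a single library, assumed to vary like the others. With the replicate number as a block, 28 members were higher and 6 lower, with a median of 0.18. The numbers did not pair the libraries, since the correlation of same-numbered deviations was -0.0173. Depth limits mainly the 7 members under 10 CPM and changes under 1.5-fold.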

Other observations

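Some mitochondrial ribosomal protein genes start next to a gene on the opposite strand, so that both may share a promoter. With starts at most 1000 bases apart, 18 members had such a neighbour, 17 of them with both genes tested, which made 16 different pairs. In 12 of the 16 pairs the fold changes had the same sign, without comparison with other neighbouring genes. Both genes were called in 4 pairs, and in each both were higher in KO, although MRPL36 (-0.023) and MRPL43 (0.069) were not called after correction for GC content and length. MRPL41, the member with the largest rise, has PNPLA7, which encodes a lysophospholipase, as its neighbour 665 bases away. PNPLA7 was at 3.74 and 3.48 CPM in KO and 1.55 and 1.58 CPM in WT (log2 fold change 1.20, SE 0.37, adjusted p = 0.00911, edgeR). MRPL36 (0.46) starts 34 bases from NDUFS6, a complex I subunit, which was at 190.3 and 200.4 CPM in KO and 118.3 and 122.4 CPM in WT (0.70, adjusted p = 1.55e-11, edgeR). MRPL43 (0.27) overlaps TWNK, the mitochondrial DNA helicase (0.44, adjusted p = 0.000269, edgeR), and 36.9% of the annotated exon bases of MRPL43 lie in other genes, so that reads of the pair may be mixed. MRPL21 (0.48) and IGHMBP2 (0.28) were the remaining pair. The opposite pattern also occurred, as MRPL27 was higher (0.35) while EME1, which starts 6 bases away, was at 15.7 and 13.2 CPM in KO and 17.8 and 18.1 CPM in WT (-0.31, adjusted p = 0.0906, edgeR). These genes were chosen after their values were seen.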
